A study of Homo sapiens with 3 samples.

Results

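The genes described here are 33 genes of human chromosome 8q24 that were selected because most of them were dimmer on the array of a Cdx2 clone than on both arrays of a Cdx1 clone. They were found on the arrays by gene symbol, old or current, and all 33 had a probe. GSDMC, a gasdermin, stood above the blank spots only in Cy5 of 1 Cdx1 array and was not measured, which left 32 members among 16030 measured genes. The cells were DLD1-TetOff clones, made from the human colorectal adenocarcinoma line DLD1, that carry pTetOff and express FLAG-tagged mouse Cdx1 or Cdx2, homeodomain transcription factors of the intestine, once doxycycline (DOX) is withdrawn. All cells were grown in DMEM with 5% FBS. Non-induced cells of each clone were kept in 0.5 µg/mL DOX, and induced cells had been without it for 12 h (Cdx1) or 24 h (Cdx1, Cdx2). The methods describe the lines as expanded from single cells and selected with hygromycin, so each stands for 1 clone.

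RNA of induced and non-induced cells was hybridised together on 2-colour TORAY 3D-Gene arrays. The Cdx1 clone had an array for each time and the Cdx2 clone a single one, without replicates or dye swaps, so clone, induced factor and array cannot be told apart in any comparison of the Cdx2 array with the Cdx1 arrays. Titles, source names and the study's figure legend put non-induced cells in Cy5 and induced cells in Cy3, whereas the cell line characteristic names them the other way round. The direction of a Cy3/Cy5 ratio is therefore likely, not settled, and all ratio signs would turn with it. Another basis for it is that MYC and CD44, which the study also followed by qPCR and at the protein level, were lower there in induced cells. That qPCR was made at later times than these arrays and in part in another colon cancer line. On the arrays, read as the titles say, the bright probe of MYC had log2 ratios of -2.35, -2.54 and -1.78, and CD44 had -0.54, -0.89 and -0.19, all below 0. The lower brightness on the Cdx2 array was seen in both channels and does not depend on which channel held which cells. Of 24460 gene probes, 86.4% to 87.5% exceeded the blank spots in both channels. All 9 epithelial marker genes on the arrays, EPCAM and CDH1 among them, did so in every channel, with a summed Cy5 brightness of 49521 to 72217. Of 9 markers of other cell types, CD68, CDH5, DCN and VIM did (summed brightness of all 9, 280.0 to 342.0), whereas CD3E, COL1A1, COL1A2, LUM and PTPRC did not.

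A band such as 8q24 is a stretch of chromosome, not a pathway. Its genes lie side by side but encode unrelated proteins, in this case subunits of mitochondrial complexes, factors of protein degradation and DNA replication, regulators of actin and membrane traffic, and transcription factors. The band also holds MYC, the best known oncogene of the region. Genes that share a complex or family with a member but lie outside the stretch that the members span ("partner genes") were therefore set beside the members. As the arrays name no genome build, positions are given only as gene order in RefSeq (GRCh38.p14). No sequences are shown.

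Brightness was read in 2 ways. The deposited value is the median intensity of a spot, with no background subtracted, and 3 such values in a row stand for Cdx1 at 12 h, Cdx1 at 24 h and Cdx2 at 24 h. The normalized value is on the log2 scale after normexp correction with an offset of 50, loess within arrays and scaling between arrays. Differences are the Cdx2 array minus the mean of both Cdx1 arrays. As the members were chosen on this contrast, these differences carry no test. Within the Cdx1 clone, the SD over all genes between 24 h and 12 h of non-induced cells was 0.19. The pooled SD between 2 probes of the same gene was 0.15. Neither measures the spread between clones, which these arrays do not give.

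Most of the 32 measured members were dimmer on the Cdx2 array in both channels by a similar amount. The median normalized difference of the 32 members was -1.52 in Cy5 (range -3.003 to 0.08), or 2.87-fold lower, and -1.64 in Cy3 (range -3.41 to 0.07), or 3.11-fold lower. The median over all genes was 0.01 in each channel. In Cy5, 21 of 32 members (65.6%) were at least 2-fold dimmer, against 0.418% of all genes. The count was again 21 in Cy3, where 0.524% of all genes were as much dimmer, and the same 21 members passed in both channels. For 27 members (84.4%), both Cdx2 channels lay below all 4 Cdx1 channels, as they did for 12% of all genes. Since these shares follow from the choice of members, nothing is read from them. Between 24 h and 12 h, non-induced Cdx1 cells differed by a median of 0.01 over the members (range -0.36 to 0.78 in Cy5). TATDN1 (0.78), NSMCE2 (0.54) and SNTB1 (0.53) differed most between these 2 arrays.

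**Figure D1:**
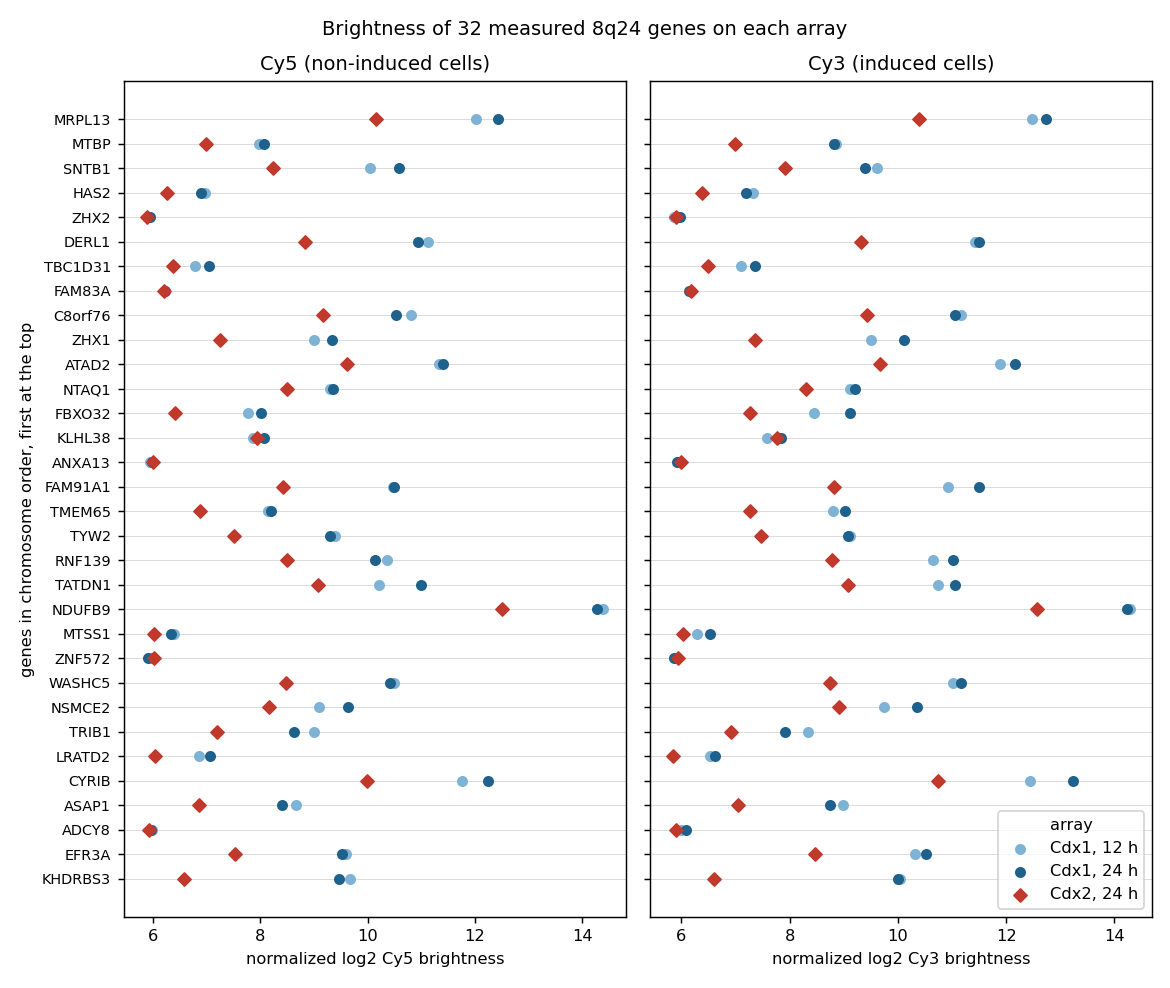
Normalized log2 brightness of the 32 measured 8q24 genes in Cy5 (left) and Cy3 (right), with 1 point per array and genes in chromosome order. Both Cdx2 channels lay below all 4 Cdx1 channels for 27 genes, while ZHX2, FAM83A, KLHL38, ANXA13 and ZNF572 overlapped.

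Among mitochondrial genes, MRPL13 encodes a protein of the large mitochondrial ribosomal subunit. Its deposited Cy5 brightness was 3341, 3923 and 687.9, with Cy3 values of 8384, 9397 and 1733. The Cdx2 array was low in both channels without overlap, and the normalized values were 4.23-fold lower in Cy5 and 4.63-fold lower in Cy3. NDUFB9, an accessory subunit of respiratory complex I, had Cy5 brightness of 17860, 14461 and 3748 and Cy3 brightness of 29365, 25328 and 7950. It was 3.55-fold lower in Cy5 and 3.21-fold lower in Cy3, and again no Cdx2 value reached a Cdx1 value of its channel. TMEM65, a protein of the inner mitochondrial membrane, was 2.45-fold lower in Cy5 (200.6, 167.7 and 48.1) and 3.13-fold lower in Cy3 (634.1, 729.1 and 174.7). All 3 mitochondrial genes were thus dimmer on the Cdx2 array than on both Cdx1 arrays.

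Genes of protein degradation followed the same course. DERL1, a channel component of ER-associated degradation, had Cy5 brightness of 1796, 1327 and 253.9 and Cy3 brightness of 4115, 4097 and 791.1. Both Cdx2 values lay far below, and the normalized drop was 4.64-fold in Cy5 and 4.41-fold in Cy3. RNF139, a ubiquitin ligase of the ER membrane, was 3.38-fold lower in Cy5 (1053, 743.9 and 200.2) and 4.12-fold lower in Cy3 (2404, 2958 and 541.2). FBXO32 is the F-box protein atrogin-1, which directs a ubiquitin ligase and is best known from wasting muscle. Its Cy5 brightness was 147.4, 145.3 and 25.2, a normalized drop of 2.81-fold, which became 7.06-fold without an offset because the offset shrinks differences of dim spots. NTAQ1 (WDYHV1 on the array), which deamidates N-terminal glutamine in the N-degron pathway, was the only member of the brighter ones that was not 2-fold dimmer. It gave 485.3, 417.8 and 204.6 in Cy5 (1.77-fold lower) and 808.0, 840.4 and 385.9 in Cy3 (1.81-fold lower), without overlap.

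Genes that act on DNA, chromatin or RNA included the member with the largest drop. KHDRBS3, a STAR-family RNA-binding protein that regulates splicing, had Cy5 brightness of 639.8, 446.1 and 35.8 and Cy3 brightness of 1562, 1445 and 105.1. It was 8.02-fold lower in Cy5 and 10.6-fold lower in Cy3, and 16.6-fold lower in Cy5 without an offset. KHDRBS3 is also the last member in chromosome order. ATAD2, a bromodomain ATPase of chromatin, was 3.38-fold lower in Cy5 (2069, 1897 and 463.9) and 5.11-fold lower in Cy3 (5652, 6556 and 1036). NSMCE2, the SUMO ligase of the SMC5/6 complex, was 2.30-fold lower in Cy5 (417.5, 507.4 and 150.7) and 2.20-fold lower in Cy3 (1259, 1865 and 589.1). MTBP, which acts with Treslin at the start of DNA replication, lay just past 2-fold in Cy5 (173.8, 152.1 and 56.1, or 2.05-fold) and at 3.60-fold in Cy3 (653.9, 622.2 and 141.8). For these 4 genes every Cdx2 value was below both Cdx1 values of its channel. TYW2 (TRMT12), an enzyme of wybutosine synthesis in tRNA, was 3.59-fold lower in Cy5 and 3.08-fold lower in Cy3. TATDN1, of the TatD nuclease family, was 2.91-fold and 3.53-fold lower.

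The zinc finger genes divided. ZHX1, a homeobox repressor, was 3.80-fold lower in Cy5 (389.4, 405.2 and 70.9) and 5.47-fold lower in Cy3 (1070, 1560 and 188.2). Its paralog ZHX2, which lies close by, had Cy5 brightness of 17.4, 16.3 and 12.7, near the blank spots, whose trimmed means were 12.8, 12.2 and 10.5. ZHX2 differed by -0.06 in Cy5 and ZNF572, a zinc finger gene also near the blanks, by 0.08. At such levels a difference could not be measured on these arrays.

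Genes of actin, membrane traffic and signalling were dimmer by similar folds. CYRIB (FAM49B), which binds RAC1 and restrains the actin regulator WAVE, had Cy5 brightness of 2791, 3400 and 607.5 and Cy3 brightness of 8243, 13197 and 2194. It was 4.002-fold lower in Cy5 and 4.26-fold lower in Cy3. WASHC5 (KIAA0196, strumpellin), a subunit of the endosomal WASH complex, was 3.94-fold lower in Cy5 (1151, 900.8 and 196.1) and 5.08-fold lower in Cy3 (3145, 3280 and 528.6). FAM91A1, an adaptor that binds the WDR11 complex at the trans-Golgi, was 4.18-fold lower in Cy5 (1142, 946.6 and 187.3) and 5.25-fold lower in Cy3 (2934, 4105 and 555.0). In each of these genes both Cdx2 values were the lowest of their channel.

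EFR3A, which anchors the lipid kinase PI4KA at the plasma membrane, was read by 2 probes that agreed, each with a normalized Cy5 difference of -2.03. Their Cy5 brightness was 648.3, 496.1 and 94.7 for one and 560.3, 442.5 and 80.8 for the other, so both were lowest on the Cdx2 array. ASAP1, a GTPase-activating protein of ARF proteins, was 3.22-fold lower in Cy5 and 3.53-fold in Cy3. SNTB1, a syntrophin that links membrane proteins to dystrophin, was 4.23-fold lower in Cy5 (839.6, 1012 and 166.1) and 3.01-fold in Cy3 (1160, 959.5 and 287.0). TRIB1, a pseudokinase that recruits the ligase COP1, was 3.07-fold lower in Cy5 (394.6, 247.1 and 70.6) and 2.31-fold in Cy3 (464.7, 334.4 and 136.0). SNTB1 and TRIB1 had smaller drops in Cy3 than in Cy5, whereas 14 of the 21 genes past 2-fold had the larger drop in Cy3. C8orf76 was 2.83-fold lower in Cy5 and 3.19-fold in Cy3.

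The members that were not 2-fold dimmer were mostly dim everywhere. HAS2, a hyaluronan synthase, differed by -0.67 in Cy5, TBC1D31 (WDR67), a centrosomal protein, by -0.54, LRATD2 (FAM84B) by -0.93 and MTSS1, a membrane-bending protein that binds actin, by -0.34. All 4 lay below all Cdx1 channels. Without an offset their Cy5 drops were 2.90-, 2.26-, 4.53- and 2.53-fold, so their size depends on the treatment of low values. FAM83A (-0.02), ANXA13 (0.04) and ADCY8 (-0.05), an adaptor, an annexin and an adenylyl cyclase, were near the blank spots, with Cy5 brightness of at most 28.5 on any array.

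KLHL38, a kelch-like gene, was well above the blank spots and not dimmer. Its Cy5 brightness was 161.2, 157.3 and 132.2 and its Cy3 brightness 257.3, 314.8 and 257.8, above the blank spots in all 6 channels. Its normalized difference was -0.02 in Cy5 and 0.05 in Cy3, and the arrays overlapped. It lies between FBXO32 and ANXA13 in gene order. FBXO32, whose normalized log2 Cy5 signal on the Cdx1 arrays was 7.77 and 8.02 beside 7.86 and 8.06 for KLHL38, was 2.81-fold lower. These signals show how far both spots stood from the blanks, not which gene was more abundant.

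Members with a mean normalized log2 Cy5 of at least 8 on the Cdx1 arrays (called brighter here) were also described by themselves, a rule chosen after the values were seen. Of 21 such members, 20 were at least 2-fold dimmer in Cy5, beside 1.08% of all genes that bright. As 8 of the 21 lay under 8 on the Cdx2 array and passed only through the Cdx1 arrays, where members are high by choice, nothing is read from this count. With the same limit on the mean over all 3 arrays, 17 of 18 members were 2-fold dimmer, beside 0.896% of 4908 genes, again as a description. The median of the 21 was -1.83 in Cy5 (range -3.003 to -0.82), or 3.55-fold lower, and -1.85 in Cy3 (range -3.41 to -0.86), or 3.60-fold lower. Of the 11 dimmer members, 1 passed 2-fold (FBXO32, at 7.77 and 8.02). KLHL38, which differed by -0.02 in Cy5, also lay just under the limit of 8 (7.86 and 8.06). MTBP lay just over it (7.96 and 8.07). Over the 32 members, the brightness in the Cdx1 clone and the Cy5 difference had a rank correlation of -0.83, given as a description, since both use the same Cdx1 values and the offset pulls dim spots towards 0.

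**Figure D2:**
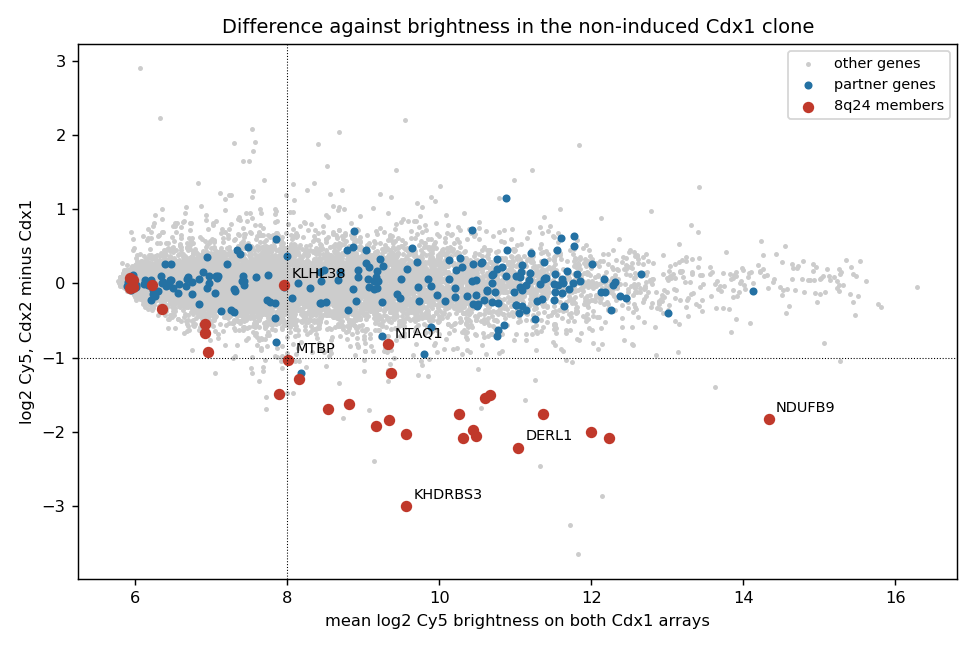
Normalized Cy5 difference between the Cdx2 array and the mean of both Cdx1 arrays (log2, vertical) against mean log2 Cy5 brightness on the Cdx1 arrays (horizontal), with 1 point per gene. Under the 2-fold line lay 21 members, most of them right of the dotted line at 8, while the 215 partner genes centred on 0.00 with 1 under it.

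Along the chromosome, dimmer genes lay among genes that were not dimmer, and not all of them were members. From the first member, MRPL13, to the last, KHDRBS3, RefSeq lists 219 genes, of which 50 had a probe and 45 were measured, 32 members and 13 others. Of the 13 others, 3 were at least 2-fold dimmer in both channels. SQLE, squalene epoxidase of cholesterol synthesis, was 7.32-fold lower in Cy5 (3490, 3278 and 365.2) and 6.31-fold in Cy3. PHF20L1, a reader of methylated lysine, was 3.28-fold and 5.14-fold lower, and NDRG1, a gene of stress response and differentiation, 2.53-fold and 3.12-fold lower. ST3GAL1, a sialyltransferase, and ZFAT, a zinc finger gene, differed by -0.67 and -0.59 in Cy5 and were also below all Cdx1 channels.

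MYC lies inside this stretch and did not share the drop in both channels. Its bright probe gave Cy5 brightness of 1039, 685.4 and 453.9, lowest on the Cdx2 array, but Cy3 brightness of 366.3, 248.9 and 262.0, where the Cdx2 array lay between the Cdx1 arrays. Its other probe was near the blank spots (18.1, 17.6 and 13.0 in Cy5). Normalized, the bright probe differed by -0.62 in Cy5 and 0.04 in Cy3, and the other by -0.07 and 0.03. Averaged over both probes, MYC differed by -0.34 in Cy5 and 0.04 in Cy3. The gene next to it in order, POU5F1B, an OCT4 paralog that shares sequence with OCT4 genes elsewhere, differed by -0.32 and -0.28. The remaining 6 genes of the stretch (FER1L6, FER1L6-AS1, LINC02912, OC90, DNAAF11 and TG) were dim, with Cy5 brightness of at most 51.4, and differed by -0.27 to 0.11 in Cy5. Of these, DNAAF11, which was not above the blank spots in Cy5 of the Cdx2 array, and TG differed by -0.65 and -0.63 in Cy3.

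Genes next to the stretch were not 2-fold dimmer in Cy5. The 5 measured genes before it, MAL2, ENPP2, TAF2, DSCC1 and DEPTOR, differed by 0.29, 0.02, -0.28, 0.38 and -0.03 in Cy5. After KHDRBS3, FAM135B, COL22A1, KCNK9, TRAPPC9 and CHRAC1 differed by -0.02, 0.04, -0.04, -0.28 and -0.26. TRAPPC9, a subunit of a trafficking complex, differed by -1.82 in Cy3, where its ratio on the Cdx1 arrays was 1.89 and 1.26 and on the Cdx2 array 0.04. Over the 415 measured genes before the stretch the median Cy5 difference was 0.01. Over the 90 genes after it the median was -0.08, and over the 31 of these with a log2 Cy5 of at least 8 it was -0.29, with 0 at least 2-fold dimmer.

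Across the genome, 43 of 16030 genes were at least 2-fold dimmer in both channels. Of these, 26 were on chromosome 8, 24 of them in the stretch from MRPL13 to KHDRBS3. Each other chromosome, 1 to 22 and X, had 0 to 3. In 15697 windows of 11 neighbouring measured genes, the median Cy5 difference was -1 or lower in 22, and each of these held genes of the stretch. None of the 15642 windows without such genes reached it, the lowest being -0.52 on chromosome 20. The lowest window of all, from TMEM65 to TRIB1, had -1.62 in Cy5 and -1.65 in Cy3. As the members were chosen on this same contrast, these counts and windows are a description and carry no test.

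**Figure D3:**
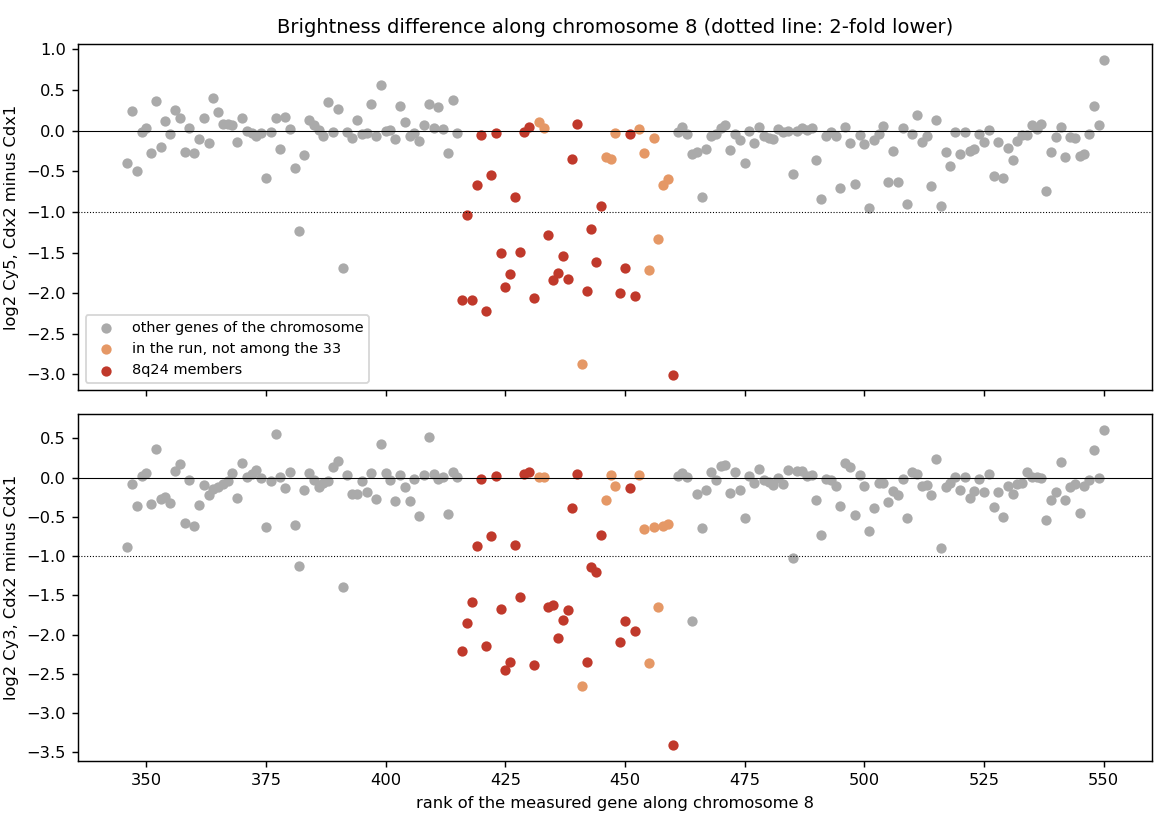
Normalized brightness difference between the Cdx2 array and the mean of both Cdx1 arrays (log2, vertical) in Cy5 (top) and Cy3 (bottom) for measured genes of the last part of chromosome 8, by rank of the measured gene. In the stretch from MRPL13 to KHDRBS3, 21 members and 3 other genes lay under the dotted 2-fold line in both channels, as did 2 genes before it, while 2 genes after it did so in Cy3.

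Partner genes, which share a complex or family with a member, did not share the drop. Over 215 measured partners of 232 listed, the median Cy5 difference was 0.00 (range -1.21 to 1.15), 1 was at least 2-fold dimmer in Cy5, 3 in Cy3 and 0 in both. The 1 in Cy5 was CD44, the hyaluronan receptor (partner of HAS2, -1.21). The 3 in Cy3 were HYCC2 (partner of EFR3A, -1.33), TBC1D23 (partner of FAM91A1, -1.02) and FAM83D (-1.08). ANXA3, an annexin, was brighter on the Cdx2 array (1.15). The 45 other proteins of the mitochondrial large ribosomal subunit had a median of -0.01 (range -0.59 to 0.37) beside -2.08 for MRPL13, and 35 other genes of complex I a median of 0.06 (range -0.36 to 0.64) beside -1.83 for NDUFB9. The 16 other ER-associated degradation genes had a median of -0.01 beside -2.21 for DERL1, the 7 other SMC5/6 genes -0.03 beside -1.20 for NSMCE2, and the 5 other WASH genes 0.15 beside -1.98 for WASHC5.

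The response to Cdx1 or Cdx2 was read as the log2 ratio of Cy3 to Cy5, likely induced over non-induced cells, within each array. The choice of members used brightness between arrays, in which the channels of all 3 arrays took part. The fit was also made on the Cdx1 arrays alone, which leaves out the Cdx2 channels but is not free of the choice. Its p-values measure only the spread between 12 h and 24 h of 1 clone. With limma over the 3 arrays, which are 3 different sets of cells and not replicates, 13 of 32 members (40.6%) rose and 4 (12.5%) fell at an adjusted p under 0.05, while 15 did not pass. Of all genes, 18.7% rose and 12.1% fell. Among genes with a log2 Cy5 of at least 8 on the Cdx1 arrays, 26.5% rose and 25.4% fell, beside 10 (47.6%) and 2 (9.52%) of the 21 members that bright. As 8 of the 21 passed only through the Cdx1 arrays, where members are high by choice, nothing is read from these shares. At an unadjusted p under 0.05, 18 members were higher and 6 lower, while 6902 of all 16030 genes passed in either direction. On both Cdx1 arrays alone, 16 members rose (50% beside 14% of all genes) and 2 fell (6.25% beside 7.5%), and 12 of the rises and 2 of the falls were called by both fits. The shares of this fit were not matched for brightness, although 21 of 32 members but 4917 of 16030 genes were that bright. Without the Cdx1 array of 12 h, 5 rose and 0 fell by limma (5 were lower at an unadjusted p under 0.05), and without that of 24 h, 9 rose and 1 fell. Of all 16030 genes, 1382 rose and 705 fell in the first of these runs, and 1814 and 943 in the other.

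The largest mean rises were those of EFR3A, FBXO32, CYRIB and NSMCE2. In the same order of arrays, the log2 ratios of EFR3A were 0.73, 0.99 and 0.93 (mean 0.88 ± 0.06, SE, n = 3, limma adjusted p = 0.0067). FBXO32 had 0.68, 1.10 and 0.86 (mean 0.88 ± 0.09, SE, limma adjusted p = 0.0085). All 3 arrays were above 0 for both genes. CYRIB had 0.68, 1.0003 and 0.75 (mean 0.81 ± 0.07, SE, limma adjusted p = 0.0079), and NSMCE2 0.65, 0.72 and 0.75 (mean 0.71 ± 0.04, SE, limma adjusted p = 0.0062). In these 4 genes the Cdx2 array gave a ratio within or just above the Cdx1 range, although their brightness there was 2.30- to 4.08-fold lower in Cy5. The ratio of FBXO32 on the Cdx2 array was 1.86 without an offset. TMEM65 (mean 0.64), FAM91A1 (0.62), WASHC5 (0.52), DERL1 (0.45), C8orf76 (0.38), MRPL13 (0.33), ASAP1 (0.29), HAS2 (0.26) and TBC1D31 (0.26) rose as well by limma, each with all 3 arrays above 0. Without loess, which moved the median of all genes to 0.09, the rises of FAM91A1, WASHC5, DERL1, C8orf76, MRPL13 and ASAP1 were 1.10, 1.01, 0.94, 0.89, 0.82 and 0.61. Those of EFR3A, CYRIB, NSMCE2 and TMEM65 were 1.33, 1.30, 1.17 and 0.96. With an offset of 0, HAS2 was at 0.45 and TBC1D31 at 0.42. With an offset of 200, FBXO32, TMEM65, FAM91A1, C8orf76, HAS2 and TBC1D31 no longer passed. MRPL13, HAS2 and TBC1D31 did not pass with either Cdx1 array left out, nor did TMEM65, FAM91A1 and C8orf76 without that of 12 h. MRPL13 also did not pass in the authors' values, while DERL1 passed in each of these runs.

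TRIB1 fell, with ratios of -0.65, -0.72 and -0.27 (mean -0.55 ± 0.10, SE, limma adjusted p = 0.0234). LRATD2 (mean -0.32), KLHL38 (-0.23) and NTAQ1 (-0.17) also fell by limma, each with all 3 arrays below 0. LRATD2, a dim gene, was at -0.90 with an offset of 0 and at -1.22 in the authors' values, below TRIB1 at -0.753 and -0.749 there. Without loess, NTAQ1 turned to 0.27 and passed as a rise (limma adjusted p = 0.0138), and KLHL38 turned to 0.0885 (limma adjusted p = 0.248). Neither NTAQ1 nor KLHL38 passed with any 1 of the 3 arrays left out. SNTB1 had ratios of -0.44, -1.19 and -0.32 and did not pass (limma adjusted p = 0.0682).

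Several members moved on the Cdx1 arrays and lay near 0 on the Cdx2 array. ATAD2 had ratios of 0.56 and 0.76 with Cdx1 and 0.06 with Cdx2, MTBP 0.89, 0.74 and 0.01, and KHDRBS3 0.36, 0.53 and 0.04. ZHX1 had 0.52, 0.77 and 0.11. None of these 4 passed over the 3 arrays (limma adjusted p of 0.0665 to 0.103), and all 4 rose in the fit of both Cdx1 arrays (limma adjusted p of 0.0179 to 0.0306). The p-values of that fit measure only the spread between 12 h and 24 h of 1 clone. The 4 are named here for ratios on these same arrays, so nothing is read from these calls. With 1 Cdx2 array the difference between the clones was not tested. Of the 21 brighter members, 14 (66.7%) had their ratio nearest to 0 on the Cdx2 array, beside 44.7% of all genes that bright. Without an offset it was 11 (52.4%) beside 43.8%, so part of the gap moved with the correction of dim spots. Of the 21, 8 counted as bright only through the Cdx1 arrays, and members were chosen as dim on the Cdx2 array. Nothing is therefore read from these counts. The median ratio of the members was 0.32, 0.31 and 0.07 on the 3 arrays, and 0.01 on each over all genes.

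**Figure D4:**
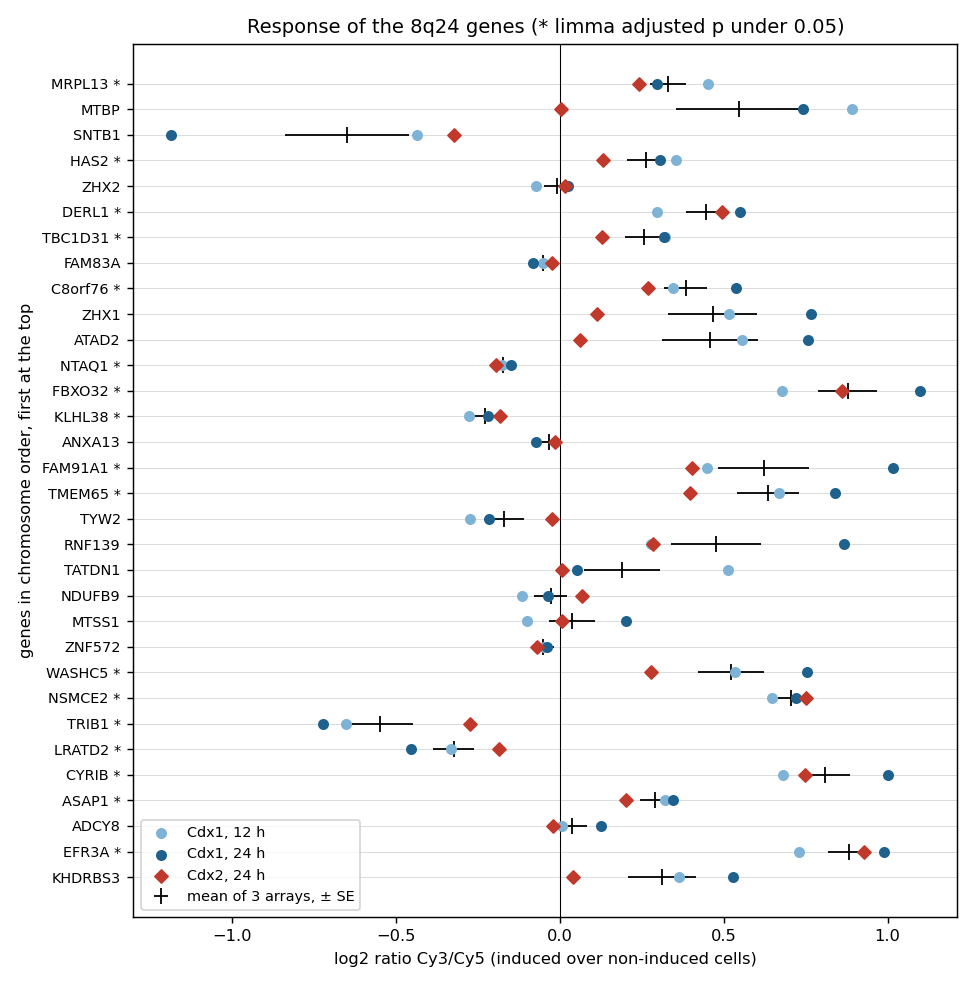
Log2 ratio of Cy3 to Cy5 (likely induced over non-induced cells) of the 32 measured 8q24 genes, with 1 point per array and the mean ± SE of the 3 arrays as a bar. Stars mark the 17 genes with a limma adjusted p under 0.05 over all genes, 13 above and 4 below 0.

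Of the 215 partner genes, 65 rose (30.2%) and 28 fell (13.0%) by limma over the 3 arrays, beside 18.7% and 12.1% of all genes. Of 139 partners with a log2 Cy5 of at least 8 on the Cdx1 arrays, 46 rose (33.1%) and 26 fell (18.7%), beside 26.5% and 25.4% of all genes that bright. Of the 45 mitochondrial ribosomal partners of MRPL13, 7 rose and 10 fell, among them MRPL53 (mean log2 ratio 0.85) and MRPL12 (-0.91). Of the 35 complex I partners of NDUFB9, 16 rose, with NDUFB3 at 1.27, and 4 fell, while NDUFB9 itself lay at -0.11, -0.04 and 0.07. Of 7 SMC5/6 partners 5 rose, beside the rise of NSMCE2, and all 3 WDR11 partners of FAM91A1 rose. Of 6 Tribbles and COP1 partners of TRIB1, 2 rose and 2 fell, TRIB3 with a mean log2 ratio of -1.33 and CEBPB with -1.09.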

How the data were processed

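Gene expression was measured on 3 2-colour arrays. The deposited files hold the median intensity of each spot in Cy5 and Cy3, from which the authors subtracted nothing. A background column beside it followed the spots themselves (rank correlations of 0.88 to 0.96 in Cy5) and was not used. The authors' deposited log2 values were found by comparison to be the ratio of Cy3 to Cy5, less the mean of the blanks, with a median of 0 per array. They served as an alternative.

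In limma 3.58.1 under R 4.3.3, intensities were corrected by normexp (offset 50, no local background), normalized by loess (span 0.3, control spots with weight 0) and scaled between arrays by the A quantiles. A probe was above background when it exceeded the trimmed mean (5% off each end) of 2680 blank spots by 2 SD. Probes flagged on any array (1, 6 and 3) were dropped. Genes were averages of the probes that passed in 1 channel or both on all arrays. The platform annotation named 1 gene for 20236 probes, and 17238 symbols were current in RefSeq, 2899 were updated, 98 were ambiguous and 1 had no match.

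For change over the 3 arrays, limma's intercept was tested two-sided, with Benjamini-Hochberg adjustment over 16030 genes. No sample is replicated, so p-values measure the spread between 3 sets of cells, and the number of arrays limits precision. The fit was also run on simulated data of 3 independent arrays. As the Cdx1 arrays share a clone, that run says nothing about the p-values here. Named genes were the members, the other measured genes of their stretch, the 5 measured genes on each side, and up to 4 genes of each of 23 partner lists with the largest Cy5 difference. Members of those lists with a large shared change (MRPL53, MRPL12, NDUFB3, TRIB3, CEBPB) were named after their values were seen where outside this rule. Members, lists and tests were chosen with earlier results of these data known. Alternatives were median scaling, no loess, other offsets, deposited brightness, other filters, the brightest probe, the authors' values, a 1.5-fold threshold and each array left out.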

Additional observations from a re-analysis of the deposited data

Results flagged for a closer look

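For 4 of the 8q24 genes the log2 ratio of Cy3 to Cy5 had opposite signs in the groups compared. The values are small, each group held 1 array, and the differences were not tested. NDUFB9 was at 0.069 on the Cdx2 array, whereas Cdx1 gave -0.11 at 12 h and -0.037 at 24 h. ADCY8, near background, was at -0.0188 on the Cdx2 array and at 0.0083 and 0.13 with Cdx1. Between the Cdx1 arrays, ZHX2, also near background, was at 0.0255 at 24 h and -0.071 at 12 h, and MTSS1 at 0.20 at 24 h and -0.10 at 12 h.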

How the results depend on the processing

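No member at least 2-fold dimmer in Cy5 changed sign under any alternative run (over all members, 258 Cy5 differences moved by less than the SD of 0.19 between the Cdx1 arrays and 62 by more). The median over the members was -1.52 in Cy5, -1.86 with an offset of 0, -0.998 with an offset of 200, -1.79 with brightness as deposited and -1.83 for the brighter members (-1.88 where brightness was taken over all 3 arrays). In Cy3 it was -1.64, and -1.95, -1.11 and -1.85 with an offset of 0, an offset of 200 and the brighter members. The count of members 2-fold dimmer in Cy5 ran from 16 (offset 200) to 25 (offset 0), and 24 were at least 1.5-fold dimmer. The 13 other genes of the stretch had a median of -0.32, which was -0.58 with an offset of 0 and -0.0883 with no filter on dim genes.

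The 13 rises became 22 without loess, which moved the median of all genes to 0.09, and 5 with an offset of 200. Over all 16030 genes, the 2997 rises became 6372 without loess and 1907 with an offset of 200. The counts of members thus moved with those of all genes. The 4 falls became 2 with an offset of 200, where the 1938 falls of all genes became 1233. With each array left out in turn, rises ran from 5 to 16 and falls from 0 to 2 by limma, the 0 without the Cdx1 array of 12 h, where 5 members were lower at an unadjusted p under 0.05. In the same runs, rises over all genes ran from 1382 to 2239 and falls from 705 to 1203. Of the ratios of single members, 248 kept their side of the threshold and direction, 22 passed newly, 37 no longer passed and 13 changed sign. The sign changes were, without loess, NTAQ1 at 0.27 (a rise that passed, limma adjusted p = 0.0138), KLHL38 at 0.0885, TYW2 at 0.22, NDUFB9 at 0.41, MTSS1 at -0.0400 and ADCY8 at -0.15. NDUFB9 was also at 0.0244 with an offset of 0, and from -0.0755 to 0.0162 with 1 array left out. ZHX2 was at 0.0090 in the authors' values and from -0.0266 to 0.0215 with 1 array left out. MTSS1 was at -0.0340 by its brightest probe and from -0.0459 to 0.106 with 1 array left out, and ADCY8 from -0.00525 to 0.0672. The cause was not tested. No paired analysis was possible because each group held 1 array and the labels give no replicate numbers. Signal over background limits what ZHX2, FAM83A, ANXA13, ZNF572, ADCY8 and GSDMC can show.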
